A study of Mus musculus with 12 samples.

Results

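The growth hormone and insulin-like growth factor (IGF) axis of the mouse liver was described through 10 genes chosen by name: Ghr, Stat5b, Socs2, Cish, Igf1, Igfals, Igfbp1, Igfbp2, Igfbp3 and Igfbp4. Each had a probe set carrying its symbol alone, among 21640 such probe sets and 28213 in all, and all 10 passed the filter on dim probe sets. Liver RNA of C57BL/6 mice, 6 weeks of age in the labels, was hybridised to 12 Affymetrix Mouse Gene 1.0 ST arrays, 3 for each of 4 treatments. The animals received a subcutaneous injection of saline, or 55 nmol/kg of Albulin, Insulin-Apo or insulin glargine, and livers were taken 6 h later. Albulin is a fusion of insulin with albumin, and Insulin-Apo a fusion of insulin with apolipoprotein A-I, the main protein of high density lipoprotein, both made as recombinant proteins in E. coli. Insulin glargine is a long-acting insulin analogue in clinical use. The methods describe wild type females, and for the arrays they name saline, Albulin and Insulin-Apo only, with no description of the glargine arrays. Whether the glargine arrays were handled or run apart is not stated, so handling and treatment cannot be told apart for them. It is not stated in the sources used here that the 3 arrays of a treatment came from separate mice, so the p-values measure the spread between arrays, which may be technical. Whether the treatments differed in the liver transcripts of this axis is the question asked of each comparison.

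Growth hormone acts on hepatocytes through its receptor, which activates the kinase JAK2 and the transcription factor STAT5B, and STAT5B switches on both Igf1 and the feedback inhibitors SOCS2 and CISH. The liver secretes most of the IGF-1 in blood, where it travels in a complex with the acid labile subunit, encoded by Igfals, and IGFBP-3, while the other binding proteins form smaller complexes. Insulin is known to maintain the responsiveness of the liver to growth hormone and to repress Igfbp1, a target of FoxO transcription factors.

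Values are log2 signals after the Robust Multichip Average (RMA), so 1 unit is a doubling, and signals of different probe sets were not compared with each other. A gene was called different when limma's B statistic, the log odds of a difference, was over 0, the threshold of the study methods. Adjusted p-values are those of limma with Benjamini-Hochberg adjustment over all probe sets tested (25989 for the comparisons without insulin glargine and 26027 with it). "Rose" and "fell" are kept for calls. The 3 comparisons with saline share the saline arrays, and all comparisons of the same insulin share its arrays. In bulk liver, fewer cells of a type and less RNA per cell cannot be told apart.

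The promoters were searched because STAT5B and FoxO factors bind known short motifs. RefSeq upstream windows of 250 bases (build GRCm38.p6) were at hand for all of the 10 genes except Socs2, which was not searched, 14 windows in all. The motifs were TTCNNNGAA, the palindrome bound by STAT factors, GTAAACA, bound by FoxO factors, and CAAAACA, the core of the insulin response element, the last 2 searched on both strands. Of 32851 windows of the same length, 7.02% held the STAT motif, 3.17% the FoxO motif and 5.56% the insulin response element core. Only 3 of the 14 windows held any of them, and they are shown with the matches in capitals. They belong to 2 start sites of Igfals (chr17:24877594-24877843 and chr17:24877981-24878230, plus strand) and to Igfbp1 (chr11:7197537-7197786, plus strand), and each ends at the base before the start site.
Igfals, first start site: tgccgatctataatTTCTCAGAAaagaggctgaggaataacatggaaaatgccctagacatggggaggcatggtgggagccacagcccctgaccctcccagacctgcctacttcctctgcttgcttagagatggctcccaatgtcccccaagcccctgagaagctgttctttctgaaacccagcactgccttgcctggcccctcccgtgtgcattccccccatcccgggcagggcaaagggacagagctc
Igfals, second start site: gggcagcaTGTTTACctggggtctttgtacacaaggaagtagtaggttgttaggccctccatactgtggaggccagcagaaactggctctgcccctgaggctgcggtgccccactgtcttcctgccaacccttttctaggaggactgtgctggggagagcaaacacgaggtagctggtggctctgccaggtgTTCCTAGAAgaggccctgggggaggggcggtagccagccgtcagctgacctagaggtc
Igfbp1: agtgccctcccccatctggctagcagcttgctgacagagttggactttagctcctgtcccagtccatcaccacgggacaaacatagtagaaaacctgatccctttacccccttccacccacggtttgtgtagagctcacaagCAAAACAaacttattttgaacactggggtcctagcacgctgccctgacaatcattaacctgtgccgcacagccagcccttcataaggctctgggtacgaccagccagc
TTCTCAGAA began 236 bases before the first Igfals start site and TTCCTAGAA 58 bases before the second, which also held TGTTTAC, the FoxO motif on the other strand, 242 bases before it. CAAAACA began 108 bases before the Igfbp1 start site. A match of letters is a description of the sequence, and no binding was measured here.

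Of the 10 genes, 1 was called after insulin glargine, Socs2, and none after Albulin or Insulin-Apo. Over the whole table, the share called against saline was 2.41% for Albulin (1.37% higher, 1.04% lower), 2.14% for Insulin-Apo (1.34% higher, 0.804% lower) and 4.84% for insulin glargine (2.24% higher, 2.6% lower). By the plain threshold of an adjusted p under 0.05, 1 of the 10 genes passed after Albulin (4.69% of all probe sets), 0 after Insulin-Apo (3.73%) and 3 after insulin glargine (10.9%). At an unadjusted p under 0.05 the numbers were 4 (18.1% of all), 4 (17.4%) and 6 (22.5%). The median log2 difference of the 10 genes was -0.18 after Albulin, -0.22 after Insulin-Apo and -0.14 after insulin glargine, beside 0.00, -0.02 and 0.00 over all probe sets.

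**Figure D1:**
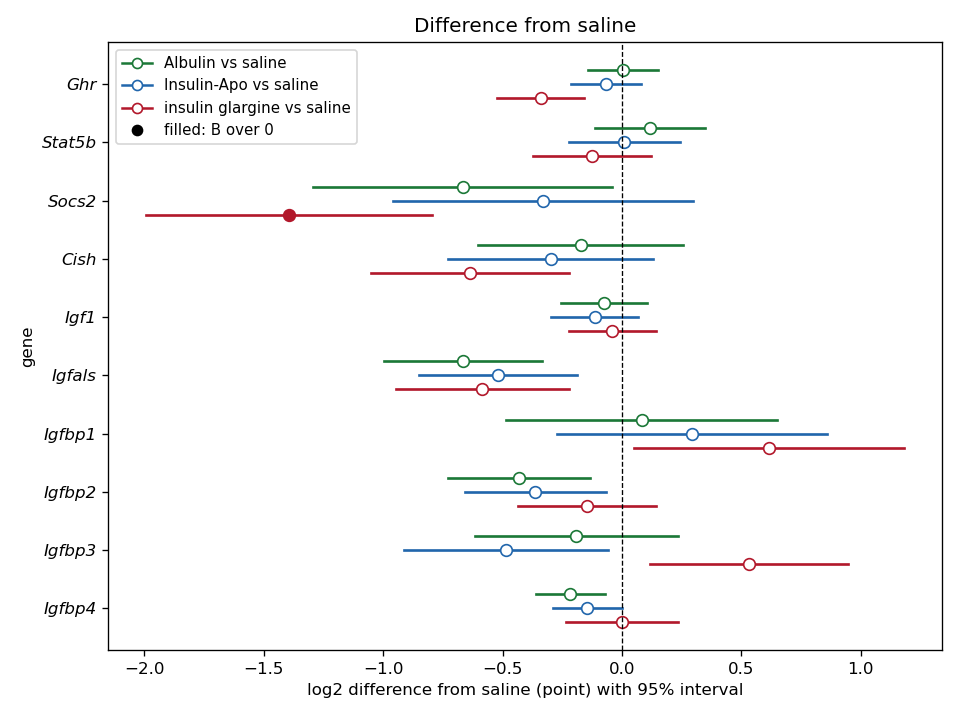
Log2 difference from saline (horizontal axis) of each of the 10 genes after Albulin, Insulin-Apo and insulin glargine, with 95% confidence intervals from limma. Socs2 after insulin glargine, at -1.39, lies farthest from 0, and the 3 differences of Igf1 lie between -0.11 and -0.04.

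Among the intracellular inhibitors, Socs2 was called after insulin glargine and Cish in no comparison. SOCS2, a ubiquitin ligase subunit induced by STAT5B, limits signalling from the growth hormone receptor. The Socs2 signal was 12.11, 11.53 and 11.41 in the saline arrays, 11.58, 10.86 and 10.61 after Albulin, 11.90, 10.95 and 11.20 after Insulin-Apo, and 10.31, 10.07 and 10.48 after insulin glargine. The 3 glargine arrays were the lowest of the 12, and the saline, Albulin and Insulin-Apo arrays overlapped. Socs2 fell after insulin glargine by 1.39 on the log2 scale (SE 0.28, 95% confidence interval -1.99 to -0.79, adjusted p = 0.00621), to 0.381 times the saline level. The differences after Albulin (-0.67, SE 0.28, adjusted p = 0.243) and after Insulin-Apo (-0.33, SE 0.28, adjusted p = 0.614) did not pass.

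The Socs2 call depended on single arrays, while its direction and its adjusted p under 0.05 did not. It was lost without saline replicate 1 (-1.18, adjusted p = 0.0312), the highest of the 12 values, and also without saline replicate 2, Albulin replicate 2, or glargine replicate 1 or 2, with adjusted p between 0.0110 and 0.0312. A second probe set of Socs2, with a mean signal of 8.86 against 11.08, differed by -1.02 (SE 0.22, adjusted p = 0.00924) and was not called.

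CISH is the other STAT5-induced inhibitor of the family. Its signal was 8.72, 8.97 and 8.38 in saline, 8.47, 8.49 and 8.59 after Albulin, 8.87, 8.30 and 8.01 after Insulin-Apo, and 8.03, 8.23 and 7.91 after insulin glargine. The glargine arrays lay under every saline and Albulin array and overlapped the Insulin-Apo arrays. The difference between insulin glargine and saline was -0.64 (SE 0.19, adjusted p = 0.0518), and those after Albulin (-0.17) and Insulin-Apo (-0.30) had intervals that include 0. Across the 12 arrays the Socs2 and Cish signals had a Pearson r of 0.67, and of 0.33 once the treatment means were taken out, as a description over arrays that share treatments.

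**Figure D2:**
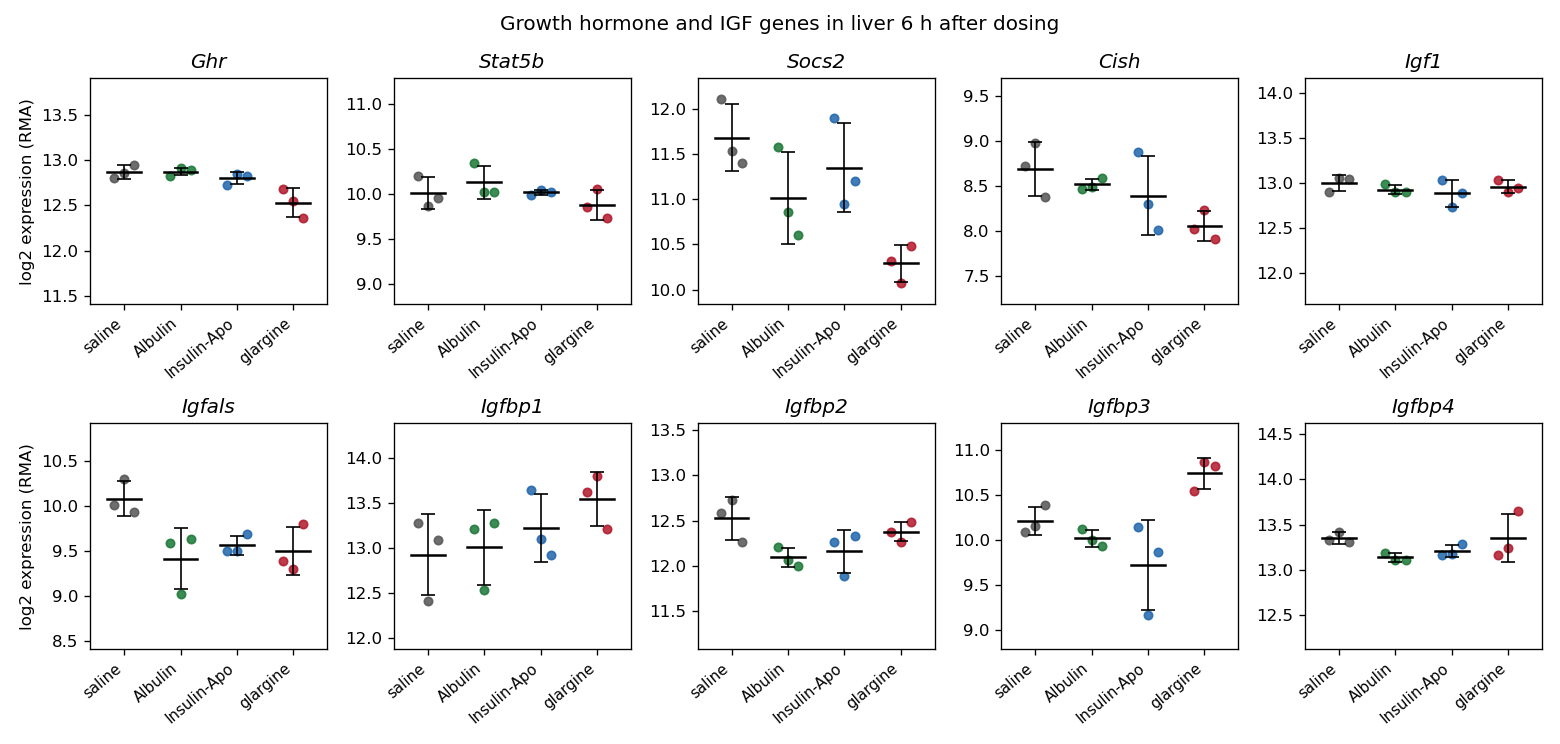
Log2 RMA signal (vertical axis, each panel spanning the same 2.5 units) of the 10 genes in each of the 12 arrays, grouped by treatment; points are arrays and bars are treatment means. In the Socs2 panel the 3 glargine points, from 10.07 to 10.48, lie under all others, and in the Igfbp3 panel the 3 glargine points, from 10.54 to 10.86, lie above all others.

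For the receptor and the transcription factor, no difference from saline reached the B threshold. Ghr encodes the growth hormone receptor and, through an alternative transcript, its soluble binding protein. Its signal was 12.80, 12.86 and 12.95 in saline, 12.83, 12.91 and 12.89 after Albulin, 12.73, 12.85 and 12.83 after Insulin-Apo, and 12.68, 12.55 and 12.36 after insulin glargine. Each glargine array was below the other 9, the nearest being 12.73 against 12.68. Ghr was lower after insulin glargine than after saline by a log2 difference of -0.34 (SE 0.08, adjusted p = 0.0203) without reaching the B threshold. After Albulin the difference was 0.00 (95% confidence interval -0.14 to 0.15) and after Insulin-Apo -0.07 (-0.21 to 0.08). Glargine replicate 3, which held the lowest Ghr value, was also the array least like its group over all probe sets, with a mean r of 0.990 to the other glargine arrays, and without it the difference was -0.25 (adjusted p = 0.0445). The adjusted p was over 0.05 without saline replicate 2 (0.0628) or saline replicate 3 (0.0841) and with only the arrays of the groups compared (0.0956). Stat5b, the main carrier of the signal to the nucleus, ranged from 9.86 to 10.20 in saline and from 9.73 to 10.34 in the other arrays, and its 3 differences from saline lay between -0.13 and 0.12 with no adjusted p under 0.619.

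The transcript of IGF-1, the endocrine product of the axis, differed little, and the protein was not measured on these arrays. The Igf1 signal was 12.91, 13.06 and 13.04 in saline, and 12.93 ± 0.05 after Albulin, 12.89 ± 0.15 after Insulin-Apo and 12.96 ± 0.07 after insulin glargine (mean ± SD, n = 3 arrays each). The arrays of all 4 treatments overlapped. The intervals of the 3 differences from saline reached from -0.30 to 0.14, so changes beyond these bounds, at either end, lay outside the 95% intervals of this probe set.

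Igfals had lower values than in saline after each of the 3 insulins. Its product, the acid labile subunit, holds IGF-1 and IGFBP-3 in the long-lived complex of plasma. The signal was 10.01, 10.30 and 9.93 in saline, 9.59, 9.03 and 9.63 after Albulin, 9.50, 9.50 and 9.68 after Insulin-Apo, and 9.39, 9.30 and 9.80 after insulin glargine. All 9 arrays of insulin-treated livers were below all 3 saline arrays, the closest pair being 9.80 and 9.93. The 3 comparisons share the saline arrays, and no share over all probe sets was computed for this joint separation. For each insulin alone, 11.7% (Albulin), 12.7% (Insulin-Apo) and 13.1% (insulin glargine) of all probe sets were lower without overlap. The log2 difference was -0.67 after Albulin (SE 0.15, adjusted p = 0.0311), -0.52 after Insulin-Apo (SE 0.15, adjusted p = 0.0880) and -0.59 after insulin glargine (SE 0.17, adjusted p = 0.0411), and none reached the B threshold. Without Albulin replicate 2, the lowest Igfals value, the difference after Albulin was -0.47 (adjusted p = 0.0575). Its adjusted p was also over 0.05 without saline replicate 1 (0.0687), saline replicate 2 (0.129) or Albulin replicate 1 (0.0535). The same held with the replicate number as a block (0.0570) and with all 12 arrays in the fit (0.0583). The value after Albulin kept an adjusted p under 0.05 in 15 of 21 alternatives. The value after insulin glargine kept an adjusted p under 0.05 in 11 of 23 alternatives, with the highest, 0.173, without saline replicate 2. Both counts include the alternatives that changed only the call rule, in which the adjusted p could not change. The windows with the STAT motif shown above are those of this gene, whose other window of 3 held none.

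Among the binding proteins, IGFBP-1 is the one known to respond fastest to insulin in the liver. The Igfbp1 signal was 13.27, 12.42 and 13.09 in saline, 13.21, 12.53 and 13.28 after Albulin, 13.64, 13.10 and 12.92 after Insulin-Apo, and 13.62, 13.79 and 13.21 after insulin glargine. The treatments overlapped, and saline replicate 2 and Albulin replicate 2 were the lowest arrays. The mean was thus not lower after any of the insulins at 6 h: the differences were 0.08 after Albulin (95% confidence interval -0.48 to 0.65), 0.29 after Insulin-Apo (-0.27 to 0.86) and 0.62 after insulin glargine (0.05 to 1.18, adjusted p = 0.176).

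Igfbp2 encodes a binding protein also known to be repressed by insulin and raised in fasting. Its signal was 12.59, 12.72 and 12.26 in saline, 12.21, 12.07 and 11.998 after Albulin, 12.26, 11.89 and 12.33 after Insulin-Apo, and 12.38, 12.27 and 12.48 after insulin glargine. The Albulin arrays were all under the saline arrays, while those of the other 2 insulins overlapped them. The differences were -0.43 (SE 0.13, adjusted p = 0.105), -0.36 (SE 0.13, adjusted p = 0.183) and -0.15 (SE 0.13, adjusted p = 0.620), in the same order. Igfbp4, which codes for a small binding protein made in quantity by hepatocytes, was 13.35 ± 0.06 in saline, 13.14 ± 0.05 after Albulin, 13.21 ± 0.07 after Insulin-Apo and 13.35 ± 0.26 after insulin glargine. The Albulin and Insulin-Apo arrays lay under all saline arrays, with differences of -0.22 (adjusted p = 0.0941) and -0.14 (adjusted p = 0.284), and the glargine difference was 0.00 (95% confidence interval -0.23 to 0.23).

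IGFBP-3, the main carrier of IGF-1 in blood, is known to be made in liver largely outside the hepatocytes. The Igfbp3 signal was 10.09, 10.15 and 10.39 in saline, 10.12, 10.005 and 9.94 after Albulin, 10.14, 9.17 and 9.87 after Insulin-Apo, and 10.54, 10.86 and 10.82 after insulin glargine. The glargine arrays stood above the other 9, and Insulin-Apo replicate 2 stood below the rest. Against saline the differences were -0.19 after Albulin (adjusted p = 0.693), -0.48 after Insulin-Apo (adjusted p = 0.220) and 0.53 after insulin glargine (SE 0.19, adjusted p = 0.105), and none was called.

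Counting genes whose arrays did not overlap with the saline arrays gave 3 lower after Albulin (11.7% of all probe sets) and 0 higher (11.6%). After Insulin-Apo 2 were lower (12.7%) and 0 higher (10.4%), and after insulin glargine 4 were lower (13.1%) and 1 higher (11.8%). These shares show how often 3 arrays on each side separated over the whole table.

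The second question was whether the 3 insulins differed from each other at the same dose and time. Albulin and Insulin-Apo did not separate on any of the 10 genes: 0 were called (0.639% of all probe sets, 0.25% higher and 0.389% lower after Albulin), 0 had an adjusted p under 0.05 (0.139%), 0 an unadjusted p under 0.05 (13.5%), and 0 had arrays without overlap (9.55% higher, 9.02% lower). The differences, Albulin minus Insulin-Apo, ran from -0.34 for Socs2 (95% confidence interval -0.96 to 0.29) to 0.29 for Igfbp3 (-0.13 to 0.72). The narrowest interval was that of Igfbp4, -0.22 to 0.07, and those of Ghr (-0.07 to 0.22) and Igf1 (-0.14 to 0.22) were close to it. The widest were those of Socs2 and of Igfbp1, the latter from -0.78 to 0.35.

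Insulin glargine differed from Insulin-Apo in 1 gene of the 10. Over all probe sets 4.84% were called (1.96% higher, 2.88% lower after insulin glargine). Igfbp3 was higher after insulin glargine by 1.01 on the log2 scale (SE 0.19, 95% confidence interval 0.60 to 1.43, adjusted p = 0.00483), a ratio of 2.02. The call was kept without Insulin-Apo replicate 2, the low array, with a difference of 0.74 (adjusted p = 0.00534), and was lost without glargine replicate 2 (0.96, adjusted p = 0.0161) or replicate 3 (0.97, adjusted p = 0.0128). Socs2 was lower by a log2 difference of -1.06 (SE 0.28, adjusted p = 0.0262) and Ghr by -0.27 (SE 0.08, adjusted p = 0.0580), neither called. At an adjusted p under 0.05 there were 2 genes (10.8% of all probe sets) and at an unadjusted p under 0.05 there were 3 (23.5%). Arrays did not overlap for 1 gene that was higher (12.8%) and 2 that were lower (12.7%) after insulin glargine.

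Against Albulin, insulin glargine gave 0 calls among the 10 genes by limma, beside 4.35% over all probe sets (2.01% higher, 2.35% lower). Igfbp3 was higher by 0.72 (SE 0.19, adjusted p = 0.0341) and Ghr lower, with a difference of -0.34 (SE 0.08, adjusted p = 0.0223), the 2 genes with an adjusted p under 0.05 (8.94% of all). At an unadjusted p under 0.05 there were 4 (20.9%), the others being Socs2 at -0.73 (SE 0.28, adjusted p = 0.139) and Cish at -0.46 (SE 0.19, adjusted p = 0.180). Arrays did not overlap for 2 genes that were higher (10.7%) and 3 that were lower (12.3%). Igf1 again had a narrow interval, -0.15 to 0.22 against Albulin and -0.11 to 0.25 against Insulin-Apo.

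**Figure D3:**
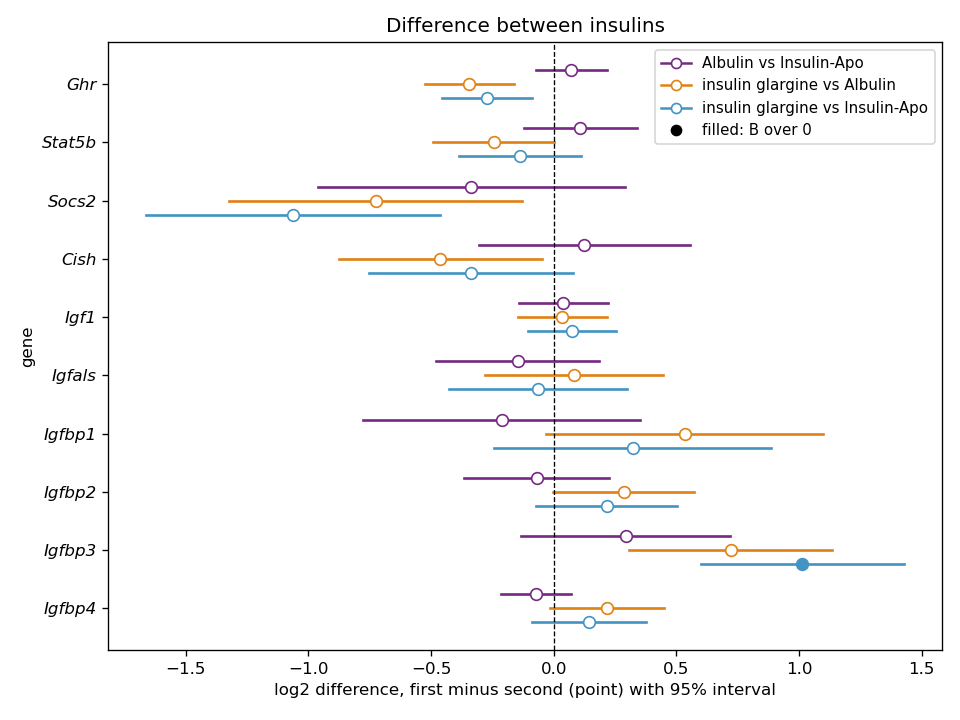
Log2 difference (horizontal axis) between insulins for the 10 genes, for Albulin minus Insulin-Apo, insulin glargine minus Albulin and insulin glargine minus Insulin-Apo, with 95% confidence intervals from limma. Igfbp3 in insulin glargine minus Insulin-Apo, at 1.01, is the called difference, and every interval of Albulin minus Insulin-Apo includes 0.

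A moderated F test over the 4 treatments, which asks for any difference among them, passed at an adjusted p under 0.05 for Igfbp3 (adjusted p = 0.0162), Socs2 (0.0194) and Ghr (0.0354), beside 13.3% of all probe sets. Igfals followed at 0.0510. For all 3 genes insulin glargine held the extreme mean, high for Igfbp3 and low for Socs2 and Ghr. Ghr did not pass without glargine replicate 3, while Igfbp3 and Socs2 did, and without glargine replicate 2 no gene of the 10 passed.

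The signals most like those of these 3 genes over the 12 arrays were looked up among 20504 probe sets with 1 symbol (20503 for Socs2), by Pearson r. For Socs2 they were Ackr2 (0.93), Xrcc1 (0.90) and Agtr1a (0.90), for Igfbp3 Timm8a1 (0.96), Bckdhb (0.95) and Dmxl2 (0.94), and for Ghr BC052040 (0.98), Akr1c20 (0.95) and Fam114a2 (0.95). These are descriptions over arrays that share treatments.

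The wider pathway was read from lists of other genes. Of 11 further IGF system genes, among them Igf2, the receptors Igf1r and Igf2r, the proteases Pappa and Pappa2 and the stanniocalcins, 0 were called in any of the 6 comparisons by limma (0.639% to 4.84% of all probe sets). Their differences from saline lay between -0.18 and 0.27, the largest being those of Igfbp7, at 0.27 after Albulin and 0.26 after Insulin-Apo. With no adjustment, a p under 0.05 was reached by 1 of them, higher, in each of the comparisons of Albulin and Insulin-Apo with saline, and by 0 for insulin glargine. Over all probe sets the shares at this threshold were 18.1%, 17.4% and 22.5%, in the same order.

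Among the growth hormone receptor's signalling partners, Socs3 and Stat3 were called between each fusion protein and insulin glargine. Of 10 measured genes of a list of 12, 4 rose after Albulin and 4 after Insulin-Apo, and 0 fell. Over all probe sets 1.37% rose and 1.04% fell after Albulin, and 1.34% rose and 0.804% fell after Insulin-Apo. SOCS3 is the inhibitor induced by STAT3, the factor through which interleukin-6 acts on hepatocytes. The Socs3 signal was 8.80, 8.92 and 8.59 in saline, 11.48, 11.30 and 10.67 after Albulin, 10.38, 11.47 and 10.12 after Insulin-Apo, and 8.90, 8.85 and 8.89 after insulin glargine. All 6 arrays of the fusion proteins were above all saline and glargine arrays. Socs3 rose by 2.38 after Albulin (SE 0.30, adjusted p = 0.00198) and by 1.89 after Insulin-Apo (SE 0.30, adjusted p = 0.00788). Stat3 rose by 0.76 and 0.53, and the phosphatase genes Ptpn2 by 0.90 and 0.55 and Ptpn1 by 0.59 and 0.62, in the same order. Ptpn1 and Ptpn2 encode tyrosine phosphatases that act on JAK kinases, STAT factors and, for Ptpn1, the insulin receptor. The call of Ptpn2 after Insulin-Apo was lost without any 1 of 5 arrays (saline replicate 1 or 2, Albulin replicate 2, Insulin-Apo replicate 1 or 2), with an adjusted p of up to 0.0910, and the other 7 calls of the fusion proteins in this list held without any 1 array.

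After insulin glargine 1 gene of this list rose, the phosphatase gene Ptpn11 (0.46, SE 0.09, adjusted p = 0.00525), and 1 fell, Ptpn6 (-0.38, SE 0.06, adjusted p = 0.00175). Over all probe sets 2.24% rose and 2.6% fell. Compared directly, 2 of the 10 genes were called between insulin glargine and Albulin and 3 between insulin glargine and Insulin-Apo, all lower after insulin glargine. Over all probe sets 2.35% and 2.88% were called lower, in the same order. Socs3 was lower after insulin glargine than after Albulin (-2.27, SE 0.28, adjusted p = 0.000345) and than after Insulin-Apo (-1.78, SE 0.28, adjusted p = 0.00174), as was Stat3 (-0.82 and -0.59), and Ptpn6 was lower than after Insulin-Apo (-0.33), a call lost without Insulin-Apo replicate 1 or 2 or glargine replicate 1 or 2 (adjusted p up to 0.0264). Ptpn1 (-0.37 and -0.41) and Ptpn2 (-0.67 and -0.32) were not called in these direct comparisons. Ptpn1 nevertheless had an adjusted p under 0.05 in 20 of 23 alternatives against Albulin and in 23 of 23 against Insulin-Apo. For Ptpn2 the numbers were 21 and 0 of 23. These counts too include the alternatives that changed only the call rule and left the adjusted p as it was. The call of Ptpn11 was lost without any 1 of 4 arrays (saline replicate 2 or 3, glargine replicate 2 or 3), with an adjusted p of up to 0.0296. Jak2, Stat5a, Socs1 and Sh2b1 were called in none of the 6 comparisons.

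**Figure D4:**
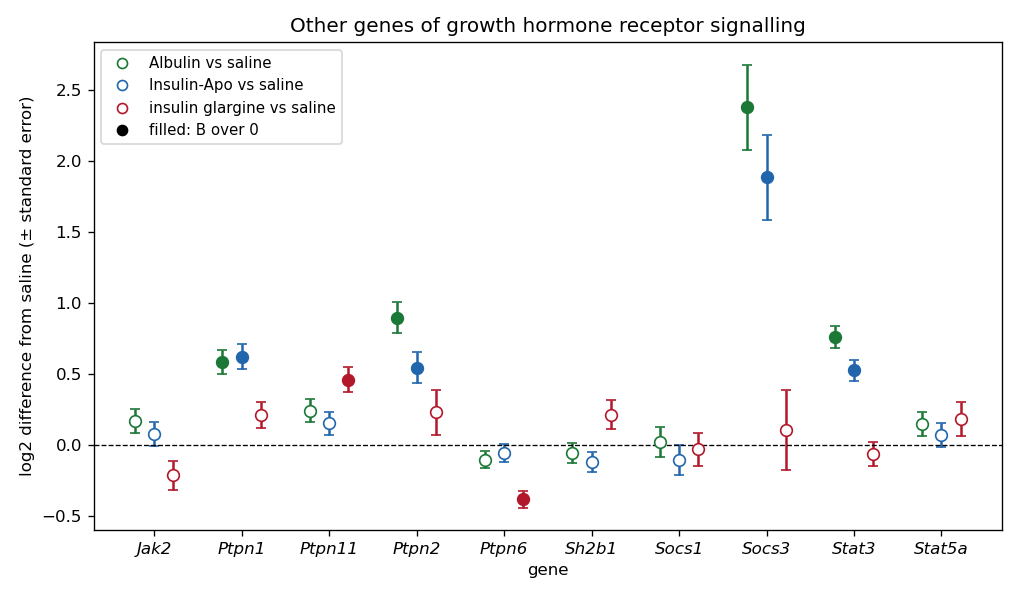
Log2 difference from saline (vertical axis) of the measured growth hormone receptor signalling genes (horizontal axis) after Albulin, Insulin-Apo and insulin glargine, with bars for the standard error from limma. Socs3 stands at 2.38 after Albulin and 1.89 after Insulin-Apo, far from its value after insulin glargine.

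Acute phase genes, whose liver transcription STAT3 is known to drive, moved with these differences. Of 10 measured, 6 rose after Albulin and 6 after Insulin-Apo, with Saa1, encoding serum amyloid A1, higher by 5.55 and 5.33 on the log2 scale, and 0 were called after insulin glargine. Over all probe sets 1.37% rose after Albulin and 1.34% after Insulin-Apo, and 4.84% were called after insulin glargine. Marker genes of neutrophils also moved, with 3 of 8 higher after Albulin (1.37% of all probe sets), 0 after Insulin-Apo (1.34%) and 0 after insulin glargine (2.24%). Compared directly, 7 of 8 were lower after insulin glargine than after Albulin (2.35% of all probe sets) and 4 of 8 lower than after Insulin-Apo (2.88%). Their mean signal ranged from 7.11 to 7.39 in saline, from 7.74 to 7.87 after Albulin, from 7.53 to 7.76 after Insulin-Apo and from 6.98 to 7.17 after insulin glargine. The part of either in the differences of Socs3, Stat3 or the 10 genes was not tested. Both fusion proteins were preparations made for the study and insulin glargine a commercial product, so preparation and structure cannot be told apart here.

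Circadian clock genes also differed from saline. Of 13 measured, 1 rose and 1 fell after Albulin, 1 rose and 4 fell after Insulin-Apo, and 4 rose and 4 fell after insulin glargine, in which the share called over all probe sets was also the highest of the 3 (4.84% against 2.41% and 2.14%). Whether the list differed between insulins was not tested as a whole. Arntl, the positive arm of the clock, was higher by 1.97 after insulin glargine (adjusted p = 6.81e-05), and Dbp, a clock output, was lower, at -2.44 (adjusted p = 2.29e-05). For Arntl and Dbp the means after the fusion proteins lay on the same side of saline. That of Arntl was 8.91 after each, against 8.30 in saline. For Dbp they were 10.25 after Albulin and 10.09 after Insulin-Apo, against 11.22. Other genes of the list did not share this. Nr1d1 was 11.99 in saline, 12.26 after Albulin, 12.19 after Insulin-Apo and 10.36 after insulin glargine. Cry2 was 9.66, 9.45, 9.29 and 9.97, in the same order. Compared directly, 4 were called higher and 2 lower after insulin glargine than after Albulin (2.01% and 2.35% of all probe sets). The numbers against Insulin-Apo were also 4 and 2 (1.96% and 2.88%). The part of the clock differences in the lower Socs2 and Ghr and the higher Igfbp3 of the glargine arrays was not tested.

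Cell type markers bear on Igfbp3 in particular. The 7 measured hepatocyte markers were called in no comparison (0.639% to 4.84% of all probe sets), and their mean signal stayed between 14.05 and 14.11 in the 12 arrays. Between insulin glargine and Insulin-Apo, 1 of 10 Kupffer cell markers was lower (Marco, -1.18), 1 of 9 sinusoidal endothelial markers was lower (Kdr, -0.53), 1 of 4 cholangiocyte markers was higher (Krt19, 0.52), and 0 of 8 stellate cell markers were called. Over all probe sets 1.96% were called higher and 2.88% lower in this comparison. Within the lists the differences went both ways, from -0.81 (Clec4g) to 0.76 (Lyve1) in the endothelial list and from -0.84 (Lrat) to 0.30 in the stellate list. The mean signal of the Kupffer cell list ranged from 9.79 to 10.45 after insulin glargine and from 10.30 to 10.76 after Insulin-Apo, that of the endothelial list from 10.38 to 10.67 and from 10.64 to 10.75, and that of the stellate cell list from 9.89 to 10.004 and from 9.88 to 9.93. The part of cell composition in the Igfbp3 difference was not tested.

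Genes further down from growth hormone were read from 3 lists. The transcription factor genes Bcl6, Onecut1 and Cux2, which growth hormone is known to control in liver, gave 0 calls in the 6 comparisons by limma (0.639% to 4.84% of all probe sets). After insulin glargine, Cux2 differed by -0.68 (adjusted p = 0.0296) and Onecut1 by 0.63 (adjusted p = 0.0393). Of 8 measured liver genes known to be higher in males through pulsatile growth hormone, 0 were called after Albulin (2.41% of all probe sets), Insulin-Apo (2.14%) or insulin glargine (4.84%). The median differences from saline were -0.34, -0.28 and -0.37, beside 0.00, -0.02 and 0.00 over all probe sets. The methods describe females, and Hsd3b5 was dim, with treatment means from 5.69 to 6.00 beside the filter threshold of 5. Insulin-Apo replicate 2 was far below replicates 1 and 3 for Slco1a1 (6.73 against 10.81 and 10.64) and Elovl3 (7.05 against 8.14 and 8.31). Of 6 measured genes known to be higher in females, 1 fell after Albulin (1.04% of all probe sets), 0 after Insulin-Apo (0.804%) and 2 after insulin glargine (2.6%). Their median differences from saline were -0.34, -0.47 and -0.65, beside 0.00, -0.02 and 0.00 over all probe sets. The list went both ways: A1bg had means of 8.01, 8.14 and 8.32, in the same order, against 7.75 in saline, and was not called. Acot3, an acyl-CoA thioesterase gene, fell by 1.16 after Albulin (SE 0.18, adjusted p = 0.00534) and by 1.20 after insulin glargine (SE 0.19, adjusted p = 0.00173), and was -0.85 after Insulin-Apo (adjusted p = 0.0274). Cyp2b9 fell by 0.35 after insulin glargine (SE 0.07, adjusted p = 0.00738), a call lost on leaving out any 1 of 11 of the 12 arrays (adjusted p up to 0.0315) and kept without Albulin replicate 2. Both Acot3 calls held without any 1 array.

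Genes known to be repressed by insulin through FoxO factors, the class to which Igfbp1 belongs, were read the same way. Of 10 measured, 0 rose and 1 fell after Albulin, 0 rose and 2 fell after Insulin-Apo, and 1 rose and 1 fell after insulin glargine. Foxo3 fell by 0.45 after Albulin (adjusted p = 0.00779) and by 0.41 after Insulin-Apo (adjusted p = 0.0150), and Sesn3, a stress-response gene, fell by 0.50 after Insulin-Apo (adjusted p = 0.00656) and by 0.47 after insulin glargine (adjusted p = 0.00767). Foxo1 rose after insulin glargine, by 0.95 against saline (SE 0.20, adjusted p = 0.00895). It was also higher than after Albulin (1.11, lost without Albulin replicate 1 or 2 or glargine replicate 1, adjusted p up to 0.0261) and Insulin-Apo (1.13, lost without Insulin-Apo replicate 3 or glargine replicate 1, adjusted p up to 0.0143). The call against saline was lost without any 1 of 9 arrays (all but Albulin replicate 3 and Insulin-Apo replicates 1 and 2), with an adjusted p of up to 0.0454. That of Sesn3 after insulin glargine was lost without any 1 of 8 (all but Albulin replicate 3, Insulin-Apo replicates 2 and 3 and glargine replicate 1), with an adjusted p of up to 0.0342. That of Foxo3 after Insulin-Apo was lost without saline replicate 1 or 2 or Insulin-Apo replicate 2 or 3, with an adjusted p of up to 0.0703. Igfbp1 and Foxo1 both had their highest mean signal after insulin glargine, although the Igfbp1 difference was not called. The list went both ways: G6pc and Ppargc1a also had their highest mean there, and Pck1, Irs2, Insr and Txnip their lowest. At an unadjusted p under 0.05 from limma, 1 of the 10 was higher and 3 were lower after Albulin than after saline. The numbers were 2 and 3 after Insulin-Apo, and 1 and 4 after insulin glargine. Over all probe sets, in either direction, the shares were 18.1%, 17.4% and 22.5%, in the same order.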

How the data were processed

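Liver RNA from 12 arrays (Affymetrix Mouse Gene 1.0 ST, 3 for each of 4 treatments) was analysed from the deposited table. The authors' values are log2 signals, background-corrected and normalized by RMA across arrays, so the number of arrays, not read depth, limits precision. The software version of RMA is not given in the sources used here. Array medians ran from 7.70 to 7.77, and mean correlations within a treatment from 0.990 (glargine replicate 3) to 0.997, with all glargine arrays at 0.993 or less. No pair of arrays was identical (highest r 0.997).

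Of 28213 probe sets, 21640 carried 1 gene symbol in the platform annotation, 1321 several and 5252 none, and only the first were named. Where a gene had several, the probe set with the highest mean over all arrays was used. The symbols of all 10 genes matched RefSeq. Probe sets over 5 in at least 2 arrays of a treatment were tested with limma 3.58.1 in R 4.3.3 (lmFit and eBayes, prior proportion 0.01). Comparisons among saline, Albulin and Insulin-Apo used those 9 arrays, as in the methods, and those with insulin glargine all 12. Differences were called at B over 0, with Benjamini-Hochberg adjusted p-values beside.

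The 10 genes, and the 8 gene lists and 6 marker lists, were chosen with earlier results of these data known. All 10 genes are named, and from each list up to 4 called genes of smallest p in a comparison. For each gene that passed a test, the 3 most correlated probe sets are named. Genes of the lists named outside this rule were chosen after their values were seen. Both the fit and the call were tested on simulated data. The alternatives tried were other filters, normalizations, weights, call rules, sets of arrays and probe sets, the replicate number as a block, and leaving out each array.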

Additional observations from a re-analysis of the deposited data

How the results depend on the processing

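No called difference of the 10 genes changed sign under any alternative, and 38 of the 47 recomputed values of called differences were called again. The fall of Socs2 after insulin glargine was called under 18 of 24 alternatives, with adjusted p from 0.00120 to 0.0312 and differences from -1.53 to -1.02. The higher Igfbp3 of insulin glargine against Insulin-Apo was called under 20 of 23, with adjusted p from 0.00191 to 0.0533 and differences from 0.74 to 1.22. Among the other genes named, the call of Ptpn2 after Insulin-Apo was kept under 12 of 21 alternatives, and, after insulin glargine against saline, those of Foxo1 under 12, Sesn3 under 9 and Cyp2b9 under 8 of 23. The causes of these losses were not tested.

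With an adjusted p under 0.05 as the call, 1 gene was called after Albulin (Igfals), 3 after insulin glargine (Ghr, Igfals and Socs2), 2 between insulin glargine and Albulin and 2 between insulin glargine and Insulin-Apo. A log2 change of at least 0.58 on top left 1, 2, 1 and 2. Array quality weights gave 2 after insulin glargine (Igfals and Socs2). With only the arrays of the groups compared, insulin glargine differed from Albulin in 1 gene (Igfbp3) and from Insulin-Apo in 0, where Igfbp3 had an adjusted p of 0.0533. The other probe set of Socs2, chosen after seeing the data, left 0 calls after insulin glargine. Leaving out 1 array at a time gave 0 to 1 calls after Insulin-Apo (1 without Albulin replicate 2, Igfals) and after insulin glargine, 0 to 1 in each comparison of insulin glargine with another insulin, and 0 to 4 in the F test. Without glargine replicate 1, Ghr was called in place of Socs2 after insulin glargine (-0.41, adjusted p = 0.00983).

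Deviations of same-numbered arrays over the probe sets tested correlated between -0.27 and 0.15, a measure of the whole table that cannot show whether single genes were paired. For Socs2 after insulin glargine against saline, the SE was 0.18 with the replicate number as a block and 0.28 without it. With the replicate block, 1 gene was called after Albulin (Socs2) and 2 between insulin glargine and Insulin-Apo (Igfbp3 and Socs2), with no other change in the number of calls against saline or between Albulin and Insulin-Apo. Over all probe sets, calls ranged over the alternatives from 378 to 1219 after Albulin (626 as reported), from 324 to 969 after Insulin-Apo (556), from 28 to 180 between these (166), from 783 to 2848 after insulin glargine (1259), from 701 to 2327 between insulin glargine and Albulin (1133) and from 645 to 2823 between insulin glargine and Insulin-Apo (1259). The 3 arrays for each treatment limit the precision.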
